A study of Mus musculus with 4 samples.

Results

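The sterol synthesis genes described here are the 7 listed symbols Hmgcs1, Idi1, Fdft1, Sqle, Msmo1, Insig1 and Srebf2, out of 32372 gene features in each library. They were taken by symbol, with earlier results of these data known. Of these, 5 encode enzymes of cholesterol synthesis and 2 encode its regulators. None of the 7 encodes a receptor for sterol uptake.

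Cells make cholesterol from acetyl-CoA through the mevalonate and isoprenoid steps, then squalene, then a series of sterols. SREBP2, the product of Srebf2, is a transcription factor held in the endoplasmic reticulum by Scap and the Insig proteins when sterol is abundant. It is released to switch on the synthesis genes when sterol is low. Microglia, the resident macrophages of the brain, also take up and break down lipid-rich debris, and next to amyloid plaques they enter a state marked by genes such as Clec7a, Itgax, Cst7 and Apoe.

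The data are 4 droplet libraries of single-cell RNA from female APP/PS1 mice, a transgenic model of brain amyloid, aged 4 months. Left hemispheres went through a Percoll gradient, and CD11b+/CD45+ cells, a myeloid gate, were then collected by flow cytometry. In 2 libraries (cKO) the label is APP/PS1:miR-155 cKO, a microglial deletion of one microRNA, and in the other 2 (Control) it is APP/PS1 alone. The labels call these biological replicates and give neither the Cre driver nor the part of the locus removed. The study's comparison is thus cKO against Control, and each library is 1 replicate whose cells are summed.

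The libraries held 33130800 to 47574406 unique molecular identifiers (UMIs) each. A barcode counted as a cell from 1000 UMIs and 500 genes upward if no more than 10% of its UMIs were mitochondrial. That left 3828 and 2852 cells in the cKO libraries and 4351 and 2909 in the Control libraries, with medians of 6158 to 7236 UMIs per cell. All 10 microglia markers were detected in every library, at a sum of 21243 to 24459 CPM, the UMIs of a gene per 1000000 UMIs. Monocyte and neutrophil markers summed to 278 and 62.3 CPM in cKO replicates 1 and 2 and to 245 and 10.2 CPM in Control replicates 1 and 2. Any pair of libraries shared at most 4 cell barcodes. The primary transcript of the microRNA, Mir155hg, gave 1 UMI in each cKO library and 7 and 11 UMIs in the Control libraries. A 3′ tag of that transcript does not measure the microRNA, so the deletion itself was not checked. Xist, which female cells express, stood at 1756 to 1894 CPM in 3 libraries and at 0.704 CPM in Control replicate 1. The 4 Y-linked genes summed to 0.078 to 0.27 CPM in every library, so Control replicate 1 stands apart from its label on Xist alone. One library, cKO replicate 2, has a different run code in its file name. Hspa1a, a heat-shock gene, had 214 and 394 CPM in cKO against 128 and 78.7 CPM in Control.

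In GRCm38 the 7 genes lie on 5 chromosomes and are all protein coding. Hmgcs1 (chr13:119690379-119708260, plus strand) and Idi1 (chr13:8885501-8892451, plus) are far apart on chromosome 13. Sqle (chr15:59315077-59331192, plus) and Srebf2 (chr15:82147181-82205379, plus, with the microRNA gene Mir33 inside it) are on chromosome 15. Fdft1 is at chr14:63145150-63179578 on the minus strand, Msmo1 at chr8:64718139-64733792 on the minus strand and Insig1 at chr5:28071363-28078662 on the plus strand. Fdft1 overlaps Ctsb, an abundant lysosomal protease gene, on the opposite strand. The sources used here do not say whether counting used strand, so the values of Fdft1 are uncertain to that extent. Hmgcs1 and Idi1 overlap the predicted genes Gm48342 and Gm48574 on the opposite strand.

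SREBP2 binds sterol regulatory elements, and promoters of 5 of the 7 genes (Hmgcs1, Idi1, Msmo1, Insig1 and Srebf2) were found in the RefSeq table of GRCm38.p6. Each ran from 250 bases before to 50 bases after the start site. The motif TCACNCCA, searched on both strands, was in 3 of these 5, against 4.36% of 32851 promoters of the same length. Its longer form TCACNCCAC, which overlaps it, was in Hmgcs1, against 1.24% of promoters. CCAAT, the motif of the partner factor NF-Y, was in all 5, against 37.4% of promoters. In the cell-state comparison below all 5 of these genes moved in the same direction. Idi1 and Insig1, which lack TCACNCCA, had log2 differences of 1.65 and 1.45, against 0.90 to 1.04 for the 3 with it. The 3 promoters with TCACNCCA are shown because they hold the element. They are printed 5′ to 3′ on the strand of the gene, with the sterol element and each CCAAT, or its reverse complement ATTGG, in capitals. The element lay 137 bases before the start site in Hmgcs1 (chr13:119690101-119690400), 162 before it in Srebf2 (chr15:82147019-82147318) and 177 before it in Msmo1 (chr8:64733529-64733828, minus strand).
Hmgcs1: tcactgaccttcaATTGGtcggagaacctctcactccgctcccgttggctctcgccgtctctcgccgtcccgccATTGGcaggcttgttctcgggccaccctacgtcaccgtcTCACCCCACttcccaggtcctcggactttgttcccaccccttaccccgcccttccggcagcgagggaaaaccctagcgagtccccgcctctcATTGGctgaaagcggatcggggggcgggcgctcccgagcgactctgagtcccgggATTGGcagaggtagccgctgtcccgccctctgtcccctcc
Srebf2: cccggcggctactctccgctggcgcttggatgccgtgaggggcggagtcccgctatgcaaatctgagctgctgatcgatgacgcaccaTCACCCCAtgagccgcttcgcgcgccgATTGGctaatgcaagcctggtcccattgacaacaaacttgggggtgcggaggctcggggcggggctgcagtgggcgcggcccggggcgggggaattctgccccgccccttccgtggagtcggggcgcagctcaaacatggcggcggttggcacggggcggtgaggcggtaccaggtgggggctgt
Msmo1: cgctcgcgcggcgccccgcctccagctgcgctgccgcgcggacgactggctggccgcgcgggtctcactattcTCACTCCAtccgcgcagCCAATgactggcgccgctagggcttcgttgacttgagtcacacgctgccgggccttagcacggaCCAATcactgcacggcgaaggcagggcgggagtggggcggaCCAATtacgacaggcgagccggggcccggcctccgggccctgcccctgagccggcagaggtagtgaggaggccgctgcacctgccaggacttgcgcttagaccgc
A match says only that these letters are there; binding was not measured.

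MicroRNAs pair with target transcripts through their seed, bases 2 to 8. The mature sequence of miR-155-5p in RefSeq is shown because it belongs to the deleted microRNA, with its seed in capitals.
miR-155-5p: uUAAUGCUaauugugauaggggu

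The levels in all cells were low. Most cells showed no UMI of a given gene. After each cell with at least 2000 UMIs was thinned to exactly 2000, Sqle was detected in 0.38% to 0.63% of cells and Msmo1 in 5.85% to 6.75%. In 79.6% to 82.0% of thinned cells none of the 7 genes was detected. RNA free in the suspension, read from barcodes with no more than 100 UMIs, carried the same genes. For Hmgcs1 the free RNA had 21.5 to 26.3 CPM, and drops of pure free RNA at 2000 UMIs would show it in 4.203% to 5.12%, against 4.80% to 5.28% of cells. The share of free RNA within cells was not estimated, so a single cell with a UMI is not read as a cell that expresses the gene. Summed levels are used below.

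Of the enzymes of the early steps, Hmgcs1, which makes the HMG-CoA from which mevalonate is formed, had 27.0 and 27.2 CPM in cKO and 29.1 and 28.1 CPM in Control. Its range was narrow in all 4 libraries. Idi1, which isomerises the first isoprenoid unit, was at 8.55 and 6.71 CPM in cKO and 12.7 and 11.9 CPM in Control. Both cKO libraries of Idi1 lay below both Control libraries, with no overlap of their 95% exact Poisson intervals, which cover counting error only.

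Fdft1, the squalene synthase, was at 7.47 and 6.48 CPM in cKO and 8.499 and 7.73 CPM in Control. Sqle, the squalene epoxidase and a control point of the pathway, was at 3.09 and 2.03 CPM in cKO and 3.88 and 4.14 CPM in Control, from 53 to 149 UMIs per library. Msmo1, which removes methyl groups from early sterols, was at 34.2 and 30.01 CPM in cKO and 37.3 and 39.2 CPM in Control. In each of these 3 genes the cKO libraries were the 2 lowest.

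Of the regulators, Insig1, which retains the SREBP complex, was at 19.9 and 18.2 CPM in cKO and 22.3 and 25.5 CPM in Control. Srebf2 was at 20.1 and 18.3 CPM in cKO and 22.3 and 21.5 CPM in Control. The same order held for these genes too.

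**Figure D1:**
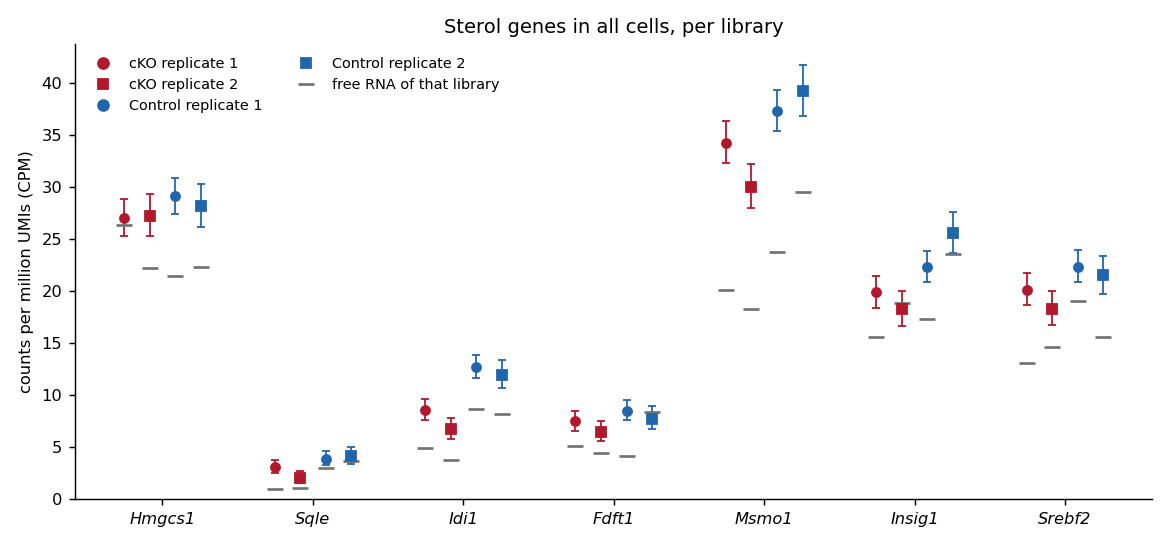
Levels of the 7 genes in all cells of each library, in CPM on a linear axis, with exact 95% Poisson intervals; grey ticks give the same gene in the free RNA of that library. The 2 cKO libraries lie below the 2 Control libraries for every gene, and most clearly for Idi1 (8.55 and 6.71 against 12.7 and 11.9 CPM).

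Across genotypes in all cells, no gene passed the test, and the 7 genes had somewhat lower levels in cKO. The log2 difference of cKO from Control was -0.76 ± 0.15 (SE) for Idi1 and -0.71 ± 0.25 for Sqle. It was -0.40 ± 0.11 for Insig1, -0.33 ± 0.10 for Msmo1, -0.29 ± 0.15 for Fdft1, -0.27 ± 0.10 for Srebf2 and -0.16 ± 0.07 for Hmgcs1. The edgeR quasi-likelihood test with Benjamini-Hochberg adjustment, 2 libraries against 2, gave adjusted p from 0.46 for Idi1 to 0.70 for Hmgcs1 and Fdft1. With the replicate number as a block, Idi1 was called (-0.77, edgeR adjusted p = 0.0016), among 170 genes called in that fit. Replicate numbers were shared by name only, and same-numbered deviations correlated at 0.178, so this call is not read as a genotype effect. Over all 13607 genes tested, 0.0% were called, with 987 at an unadjusted p under 0.05, and DESeq2 called 24. Among the 7 genes, 5 had an unadjusted p under 0.05.

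All 7 genes had both cKO libraries below both Control libraries, against 9.55% of genes tested in CPM. With TMM scaling, which sets the bulk of genes to no change, all 7 kept that order, against 19.2% of genes. Their median log2 difference was -0.33, beside 0.01 over all genes tested. With a library left out its group holds a single library, so only the sign of these fits is read here. Each of the 7 log2 differences stayed below 0 with any library left out, Control replicate 1 and cKO replicate 2 included. With no filter on low counts Idi1 (-0.77, edgeR adjusted p = 3.83e-05), Msmo1 (-0.33, 0.022) and Insig1 (-0.41, 0.0089) were called lower, among 350 genes. With cells thinned to 2000 UMIs each, the order of libraries held in CPM for 3 of the 7 (Idi1, Fdft1 and Insig1), against 9.63% of genes lower and 29.0% higher, and the libraries of the other 4 overlapped. In cells thinned to 2000 UMIs the log2 difference of Srebf2 was -0.01 and that of Idi1 was -0.91.

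Several other genes of the pathway also had values below 0, and none passed the test. Fdps, the farnesyl diphosphate synthase between Idi1 and Fdft1, was at 24.2 and 19.9 CPM in cKO and 30.03 and 31.1 CPM in Control, a log2 difference of -0.55 ± 0.11 (SE; edgeR adjusted p = 0.46). Of the squalene to cholesterol steps, Sc5d had -0.44 ± 0.11 and Cyp51 -0.40 ± 0.12. In that list 11 of 13 genes had a value below 0, and in the mevalonate and isoprenoid list 7 of 9, the members of each list counted. The median over all 13607 genes tested was 0.01, so genes fell about evenly above and below 0. In each of the other lists values lay on both sides of 0. Examples were 0.20 for Scap and 0.18 for Abca1, beside -0.70 for Stard4 and -0.56 for Nceh1. Acaca, the first enzyme of fatty acid synthesis, had -0.51 ± 0.15. The 3 genes used below to mark cell state were also lower in level in cKO without passing the test. Of these Cst7 was at 544 and 324 CPM in cKO and at 741 and 671 CPM in Control (log2 -0.78).

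Cell state was therefore read within each library. A thinned cell was positive with at least 1 UMI of Clec7a, Itgax or Cst7 and negative with none, so both kinds had equal depth. Clec7a is a glucan receptor, Itgax an integrin chain and Cst7 a cysteine protease inhibitor, and all 3 define the split and are no result. Positive cells made up 31.7% and 20.6% of cells in the cKO libraries and 37.3% and 35.5% in the Control libraries. The means were 26.1% ± 7.85 and 36.4% ± 1.21 (SD, n = 2), a difference of -10.3 percentage points with a two-sided exact permutation p of 0.333, the smallest that 2 against 2 can give. Positive cells carried more RNA before thinning, with median depths of 9670 to 11402.5 UMIs against 5720 to 7102 in negative cells. Drops of pure free RNA at 2000 UMIs would be positive in 36.8% to 76.6% of cases, so a positive cell is a cell with a UMI and not a cell shown to express the gene.

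The sterol synthesis genes were higher in positive than in negative cells. Of the 7, 6 passed the filter on low counts in each state on its own, and the edgeR test on 8 sums, 1 per library and state with the library as a block, called 6 of these 6 higher. Sqle passed only through its positive sums, so its difference is given as a value and its call is not counted. Over 10913 genes tested it called 34.5%, with 19.0% higher and 15.5% lower. The median log2 difference was 1.03 over the 6 genes and -0.03 over all genes.

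Sqle was at 4.40 and 6.38 CPM in positive cells of the cKO libraries and 6.71 and 5.88 CPM in those of the Control libraries, against 1.63, 0.71, 1.20 and 0.29 CPM in negative cells. Its log2 difference was 2.68 ± 0.43 (SE), from 1 to 8 UMIs per negative sum and 7 to 20 per positive sum. Because Sqle entered the test only through its positive sums, its p and the order of its libraries are not used. With no filter on low counts its log2 difference was 2.64.

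Idi1 was at 10.6 and 10.9 CPM in positive cKO cells and at 18.5 and 21.4 CPM in positive Control cells. Negative cells had 5.10 and 4.25 CPM in cKO and 7.37 and 5.30 CPM in Control. The log2 difference between states was 1.65 ± 0.21 (edgeR adjusted p = 3.8e-09). Idi1 was the gene whose positive cells differed most between genotypes.

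Insig1 was at 31.7 and 25.5 CPM in positive cKO cells and at 31.5 and 30.4 CPM in positive Control cells. In negative cells it was at 12.04, 15.1, 11.8 and 13.6 CPM in the same order of libraries, for a log2 difference of 1.45 ± 0.14 (edgeR adjusted p = 5.2e-13). The lowest positive value of Insig1 was well above the highest negative one.

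Hmgcs1 averaged 36.8 ± 1.36 CPM in positive and 21.2 ± 1.85 CPM in negative cells (SD, n = 4 libraries), a log2 difference of 1.04 ± 0.12 (SE). Srebf2 averaged 25.9 ± 4.72 and 14.6 ± 1.70 CPM, a difference of 1.03 ± 0.14, so the gene of the regulator itself moved along with those of the enzymes. Msmo1 averaged 46.2 ± 6.36 and 29.0 ± 1.09 CPM, a difference of 0.90 ± 0.11. For these 3 genes the edgeR adjusted p was at most 1.1e-08, and no positive library overlapped a negative one.

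Fdft1 was the weakest of the 7. It was at 10.1, 7.29, 9.40 and 11.8 CPM in positive cells of cKO replicates 1 and 2 and Control replicates 1 and 2, and at 6.33, 6.61, 7.37 and 6.48 CPM in negative cells. The positive value of cKO replicate 2 lay below the negative value of Control replicate 1. The log2 difference was 0.75 ± 0.23 (edgeR adjusted p = 0.0078). Fdft1 lost its call without Control replicate 2 (0.63, adjusted p = 0.076), with DESeq2 (0.75, adjusted p = 0.13) and with cells thinned to 1000 UMIs (0.57, adjusted p = 0.26).

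**Figure D2:**
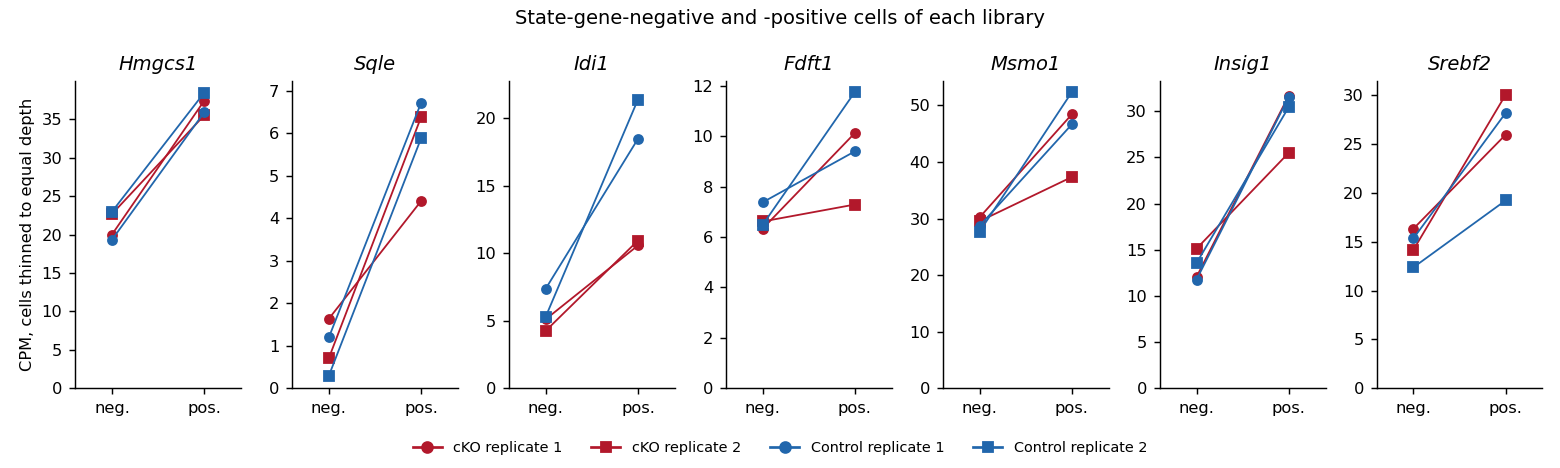
CPM of each gene in negative and positive cells of each library, all cells thinned to 2000 UMIs; each line is 1 library and each panel has its own axis from 0. All lines rise, by the least for Fdft1 in cKO replicate 2 (6.61 to 7.29 CPM), and the positive cells of Idi1 split by genotype.

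Within every library the same 6 genes had more CPM in positive than in negative cells, against 12.6% of genes tested. In 5 of the 6 every positive sum lay above every negative sum, against 8.76% of genes. The scaling moved the size. TMM sets the bulk of genes to no change, while with plain library totals the median of all genes was -0.25. The 7 genes then had log2 differences of 0.53 for Fdft1 to 2.46 for Sqle, and the 6 other than Sqle were still called. Calls over all genes were 55.2% higher ones with TMM and 22.8% with library totals.

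Markers of other cell types differed between the states in several libraries. Monocyte and neutrophil markers summed to 295 and 571 CPM in positive cells of the cKO libraries and to 15.8 and 14.96 CPM in those of the Control libraries, against 133, 8.03, 181 and 9.13 CPM in negative cells. In all cells S100a8 had 96.3, 21.0, 92.2 and 0.04 CPM in the same order of libraries and S100a9 137, 24.2, 124 and 0 CPM. These 2 genes gave most of the sum in all libraries but Control replicate 2. Only 0.07% to 0.57% of cells per library held UMIs of at least 2 of these markers. Astrocyte markers summed to 116 to 138 CPM in positive and 203 to 226 CPM in negative cells. Of the astrocyte sum in all cells, Slc1a3 alone gave 155.4 to 187.9 CPM and each of the other 5 markers at most 3.21 CPM, so it is in effect the level of 1 gene. All 6 astrocyte markers and at least 4 of 8 monocyte and neutrophil markers had a UMI in each library. Without cells carrying UMIs of 2 or more markers of another class, the same 6 genes were still called higher, from 0.81 for Fdft1 to 1.86 for Idi1, and Sqle had 2.71. With doublet candidates removed the 6 were called as well.

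The genes were higher again where more of the 3 state genes were seen. Summed over the 7 genes, the level was 91.1 ± 1.82 CPM in cells with none of the 3 detected, 130 ± 18.1 with 1, 218 ± 4.36 with 2 and 185 ± 27.1 with all 3 (SD, n = 4 libraries). From 0 to 2 state genes the summed level rose in each of the 4 libraries. The step from 2 to 3 rests on 33 to 97 cells per library and went down in each. Insig1 went from 13.1 ± 1.55 to 19.4 ± 3.47 and 42.0 ± 3.18 CPM. Sqle, given as values only, went from 0.96 ± 0.58 to 3.08 ± 0.93 and 9.82 ± 4.17 CPM. Where positive meant at least 2 of the 3 genes, the log2 differences of the 6 genes were 1.12 for Fdft1 to 2.09 for Idi1, all called, and Sqle had 3.33.

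**Figure D3:**
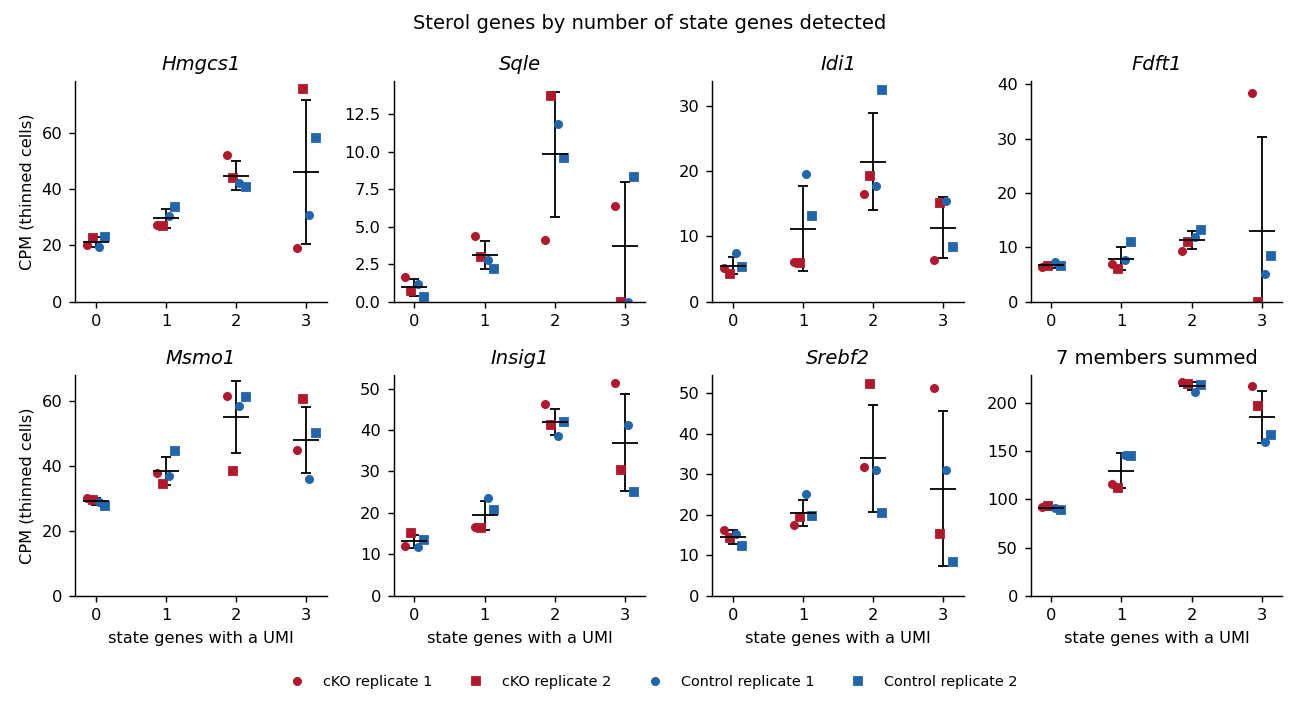
CPM in thinned cells with 0, 1, 2 or 3 of Clec7a, Itgax and Cst7 detected; coloured points are libraries, black bars the mean and SD over 4 libraries (bars end at 0), and each panel has its own axis. The summed level climbs from 91.1 to 218 CPM between 0 and 2 state genes, and the points scatter widely at 3, where cells are few.

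The wider pathway was uneven in positive cells, and its counts stand beside 19.0% of all genes called higher and 15.5% lower. Of 9 genes of the mevalonate and isoprenoid steps, 5 were called higher and 1 lower, Hmgcs1 and Idi1 included. Fdps had a log2 difference of 1.55 ± 0.12 (SE), with 30.8 to 47.5 CPM in positive and 14.9 to 16.2 CPM in negative cells. Pmvk, the phosphomevalonate kinase, had 1.17 ± 0.13. The gene called lower was Ggps1 (-0.38 ± 0.11), which leads isoprenoids away from sterols to protein prenylation. Acat2, Mvk and Mvd did not pass, at 0.28, 0.35 and 0.63.

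Of 12 tested genes from squalene to cholesterol, Fdft1, Msmo1, Cyp51, Sc5d and Dhcr7 were called higher and 1 lower. Sqle is among the 12, but it passed the filter only through its positive sums and its call is not counted. Cyp51, the lanosterol demethylase, had 1.58 ± 0.14, Sc5d, the desaturase near the end of the pathway, 1.26 ± 0.15, and Dhcr7, which makes cholesterol from 7-dehydrocholesterol, 0.96 ± 0.19. Lbr, a sterol reductase that is also a protein of the nuclear envelope, was lower (-0.46 ± 0.13). Lss, Nsdhl, Hsd17b7, Ebp and Tm7sf2 did not pass.

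Of 12 genes of SREBP processing and sterol sensing, Insig1, Srebf2, Srebf1 and Tmem97 were called higher and 1 lower. These calls stand beside the same 19.0% and 15.5% of all genes. Srebf1 (0.79 ± 0.18) is the gene of the sister factor for fatty acid synthesis. Tmem97 (0.79 ± 0.16) is that of a sterol-responsive membrane protein. Stard4 (1.95 ± 0.37), a cholesterol carrier, passed the filter only through its positive sums, so its call is not counted. Rnf145, a ubiquitin ligase that responds to sterol, was lower (-0.33 ± 0.11). Scap and the proteases Mbtps1 and Mbtps2, which release SREBP, had 0.09, 0.08 and -0.07 and did not pass, nor did Insig2 at 0.04.

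Beside 19.0% of all genes higher and 15.5% lower, the lists of uptake, storage and fatty acid genes held calls in both directions. Of 9 tested genes of lipoprotein uptake and endosomal cholesterol, 4 were called higher and 2 lower. Npc2, which moves cholesterol out of lysosomes, had 1.37 ± 0.04, Scarb1, a lipoprotein receptor, 0.97 ± 0.14 and Lipa, the lysosomal acid lipase, 0.46 ± 0.06. Mylip (-0.34 ± 0.05), which degrades lipoprotein receptors, and Stard3 (-0.19 ± 0.06) were lower. Of 7 tested genes of esterification, oxysterols and the liver X receptors, Nceh1 and Soat1 were called higher and 2 lower. Ch25h, which makes 25-hydroxycholesterol, was at 42.8 to 70.9 CPM in positive and 0.71 to 2.36 CPM in negative cells, a log2 difference of 5.38 ± 0.17. Like Sqle, Ch25h passed the filter only through its positive sums, so its call is not counted. Nceh1, a cholesteryl ester hydrolase, had 2.47 ± 0.11 and Soat1, which esterifies cholesterol, 0.78 ± 0.06. Abca1 and Abcg1, which export cholesterol, were lower, at -0.44 ± 0.05 and -0.24 ± 0.07. Abcg1 was not called with DESeq2 (adjusted p = 0.11) or at the other 2 thinning depths. Of 5 tested genes of fatty acid synthesis 4 were higher, among them Acaca (2.87 ± 0.15) and Scd2 (1.27 ± 0.08), and Fads1 was lower (-0.34 ± 0.12).

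**Figure D4:**
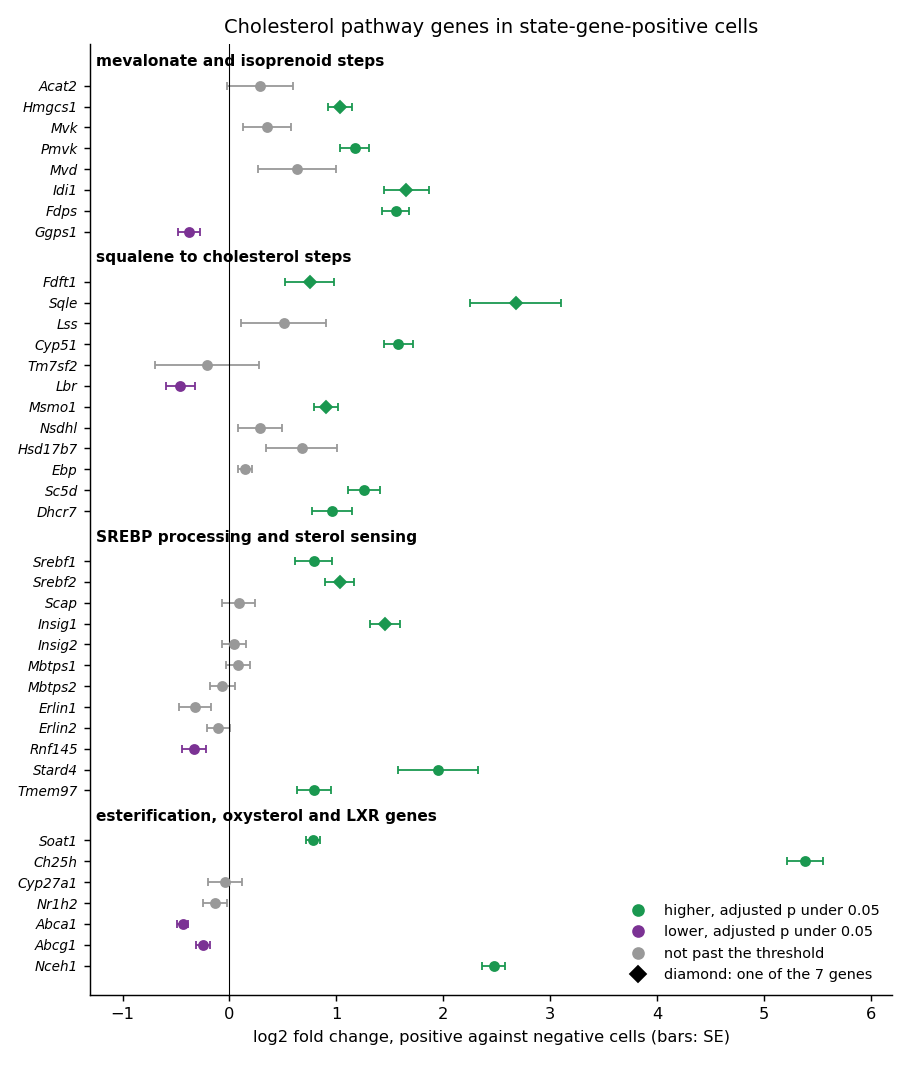
Log2 difference between positive and negative cells (edgeR, bars are SE) for tested genes of 4 lists, with the 7 genes as diamonds, green and purple for calls higher and lower and grey for the rest; 1 gene of the first list is not drawn. Synthesis genes lie mostly to the right of 0, Ch25h (5.38), Sqle and Stard4 passed the filter only through positive cells, and Ggps1, Lbr, Rnf145, Abca1 and Abcg1 lie below 0.

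Over single cells, the genes most like the sum of the 7 included Cst7 and Clec7a, which define the split. Thinned UMIs of each of 9170 genes were correlated with the summed UMIs of the 7 genes within each library, over cells of equal depth and of both states together. The 10 most alike were Cst7 (mean r = 0.156 over 4 libraries), Ctsd (0.150), Ctsb (0.134), Ctsz (0.134), Cd52 (0.131), Tyrobp (0.127), Ccl6 (0.126), Gnas (0.125), Ank (0.122) and Clec7a (0.122). All these values are weak, as counts per cell are sparse. Fdps and Cyp51 ranked 26 and 27 with 0.088 and 0.087.

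Pairs of the 7 genes were seen in the same thinned cell more often than the product of their shares for most pairs. The mean ratio over 4 libraries was 3.43 ± 1.20 (SD) for Hmgcs1 with Sqle, 1.62 ± 0.22 for Insig1 with Srebf2 and 1.59 ± 0.23 for Hmgcs1 with Insig1, each above 1 in all 4 libraries. Fdft1 with Srebf2 was below 1 in all 4 (0.853 ± 0.094). These ratios pool positive and negative cells and rest on few cells per pair.

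Within positive cells, genotype differences were mostly smaller than their errors. None of the 7 genes was called, with 0.103% of 9672 genes called, 0.0931% higher and 0.0103% lower. Idi1 had a log2 difference of -0.94 ± 0.28 (SE; edgeR adjusted p = 0.58), from the 10.6 and 10.9 CPM in cKO and 18.5 and 21.4 CPM in Control given above. At full UMIs, Idi1 in the same cells was at 13.01 and 16.0 CPM in cKO and 20.0 and 20.3 CPM in Control, a log2 difference of -0.57 (edgeR adjusted p = 0.26). Where positive meant at least 2 state genes it was -0.52 (edgeR adjusted p = 0.94). In CPM it was the only gene of the 7 with both cKO libraries below both Control libraries, against 11.7% of genes. With TMM scaling Sqle and Insig1 joined it, against 18.9% of genes. The other 6 genes had -0.39 ± 0.44 for Sqle to 0.10 ± 0.22 for Srebf2. The value of Srebf2 changed sign with full UMIs (-0.22) and without Control replicate 2 (-0.07).

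In negative cells 6 of the 7 genes had enough UMIs to be tested, Sqle being left out by the filter. None was called, with 0.0998% of 11019 genes called, 0.0726% higher and 0.0272% lower. Idi1 had -0.51 ± 0.34 and the other 5 ranged from -0.16 ± 0.30 for Fdft1 to 0.07 ± 0.20 for Srebf2. Both cKO libraries of Idi1 were below both Control libraries in CPM, against 10.1% of genes, and both of Msmo1 were above, against 23.4%. With TMM scaling none was above, against 16.7% of genes, and Idi1 and Fdft1 were below, against 16.6%. At 4000 UMIs per cell the difference of Idi1 was 0.03.

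**Figure D5:**
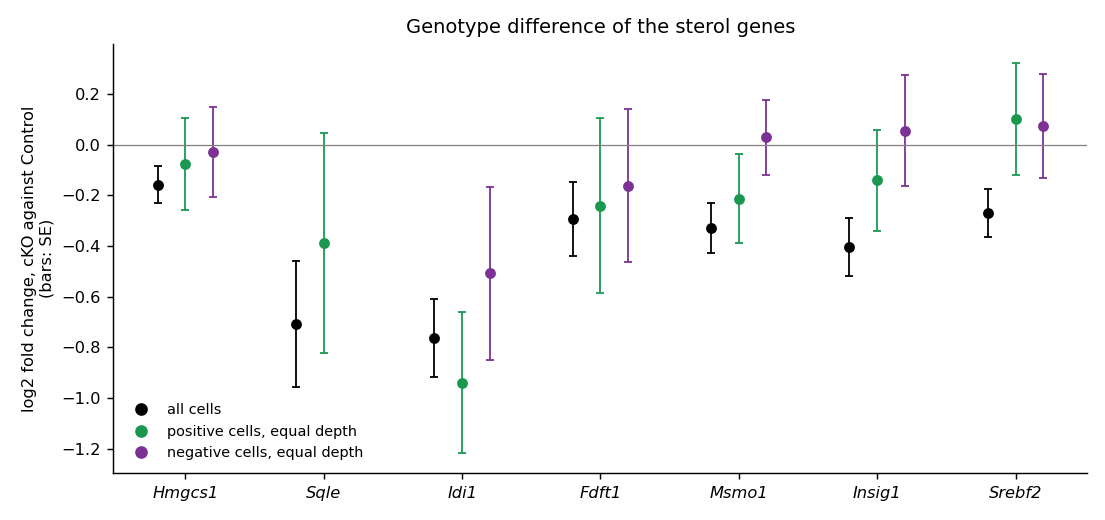
Log2 difference of cKO from Control (edgeR, bars are SE, 2 libraries against 2) in all cells at full depth, and in positive and negative cells thinned to 2000 UMIs; Sqle was not tested in negative cells. In all cells each gene lies below 0, and within states Idi1 has the lowest values, -0.94 and -0.51, with no gene called.

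The test of the interaction asked whether the difference between states itself differed by genotype. No gene of the 7 was called, with 0.11% of 10913 genes called, 0.0641% higher and 0.0458% lower. All 7 values were below 0, from -0.91 ± 0.94 for Sqle to -0.01 ± 0.27 for Srebf2, and 5 of the 7 changed sign under at least 1 alternative.

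The share of positive cells and the level within them were then set apart by arithmetic, a step chosen after the data were seen. Summed over the 7 genes in cells of at least 2000 UMIs, at full depth, Control had 137.5 CPM and cKO 114.8 CPM, a difference of -22.7 CPM. With each library's positive and negative levels weighted by the mean Control share of UMIs from positive cells (47.9%, against 33.7% in cKO), cKO had 126.0 CPM and the difference was -11.5 CPM. At equal depth the difference was -11.3 CPM as observed and -4.75 CPM at the Control share, and that of Idi1 alone was -5.03 and -4.39 CPM. Srebf2 went the other way at equal depth, 0.94 CPM higher in cKO as observed and 2.45 CPM higher at the Control share. Hmgcs1 at full depth was 0.073 CPM higher in cKO at the Control share. No test was made of these sums. In bulk sums like these, fewer cells of a kind and less RNA per cell cannot be told apart. The split parts them only partly, because positive cells were mixed. At least 2 state genes were seen in 565 of 1136 and 215 of 549 positive cells in cKO. In Control they were seen in 772 of 1490 and 477 of 936. The summed level was 130 CPM with 1 state gene and 218 CPM with 2. What remains at the Control share can still hold such a difference in mix, which was not tested. A p that misses the threshold, as for all 7 genes here, does not show that the genotypes are alike.

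Heat-shock transcripts moved with genotype and with state. After thinning, 43.0% and 58.9% of cKO cells and 36.2% and 29.5% of Control cells held a UMI of at least 1 of 3 heat-shock genes (Hspa1a, Hspa1b, Dnajb1). In every library fewer of these cells were positive for the state genes, for example 21.4% against 39.5% of the other cells in cKO replicate 1. Between cells with and without such a UMI, edgeR called 1 of 6 tested genes lower and 0 higher, against 7.8% and 3.89% of 10811 genes. Sqle was not tested. That gene was Insig1, at 14.3 to 15.5 CPM in cells with and 21.0 to 21.6 CPM in cells without, a log2 difference of -0.61 ± 0.13 (SE; edgeR adjusted p = 7.6e-04). The other 5 had -0.13 to -0.47. The part of heat shock in the genotype and state differences was not tested beyond leaving these cells out. With every cell carrying a raw UMI of these 3 genes left out, the genotype difference of Insig1 in all cells was -0.40 and that of Idi1 was -0.51, and 6 of the 7 genes were tested between states and called higher.

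A second state was read in the same way. Interferon-positive cells, with at least 2 of 6 interferon genes detected, made up 4.80% to 5.96% of cells per library. None of the 7 genes was called, against 5.0% of 10647 genes, 3.94% higher and 1.05% lower. Sqle had 1.75 ± 0.71 (SE; edgeR adjusted p = 0.19), from 0 to 6 UMIs per interferon-positive sum, and Msmo1 had 0.11 ± 0.22. Ch25h, the enzyme that interferon is known to induce, was called higher at 1.45 ± 0.23, and Nceh1 was called higher at 0.74 ± 0.18 but lost its call without either cKO library (0.67 and 0.59). These cells also carried more of the first state's genes: Cst7 (0.41 ± 0.07), Clec7a (0.37 ± 0.10) and Apoe (0.54 ± 0.04) were called higher. The part of the first state in these differences was not tested.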

How the data were processed

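Per the submitters' processing notes, the authors used Cell Ranger 4.0.0 and mm10; the values deposited are UMI counts per gene and barcode, not normalized. Which settings were used for strand is not given in the sources used here. The cell filter, thinning and comparisons were computed from these counts. Counts were summed per library, or per library and state, and tested with edgeR 4.0.16 (TMM, filterByExpr, glmQLFit and glmQLFTest, Benjamini-Hochberg adjusted p under 0.05) in R 4.3.3; DESeq2 1.42.0 was an alternative. Thinning and tables used numpy 2.4.6, scipy 1.17.1 and scanpy 1.11.5. Cells were not clustered and doublets were kept. Scrublet itself called 0 or 1 cell per library, so its top scores were removed only as an alternative. Depth per library was 33130800 to 47574406 UMIs. With 2 libraries a group, p-values of the genotype tests set a difference against the spread between these libraries. That spread is estimated partly from all genes tested, not from 1 gene alone. The state, interferon, heat-shock and interaction tests hold the library as a block. Their p-values set the difference within a library against its variation from library to library, estimated partly from all genes in the same way. The tests and the thinning were tested on simulated data. For the tests, changes were planted only in genes with higher mean counts than Sqle, Fdft1 and Idi1 had in the thinned sums. The simulation therefore does not cover these genes there.

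Genes named are the 7 members, up to 3 further genes per pathway list by smallest p, checks and the 10 most alike; further list genes were named after their values were seen. Members and lists were chosen with earlier results of these data known. Some list genes are not reported here. Coordinates are GENCODE M21 on GRCm38, in which 128 of 32372 features had no entry. Alternatives changed normalization, filter, tool, depth, state rule, doublets, other-class, cycling or heat-shock cells, the replicate block and single libraries; library totals, TMM-scaled orders and the share arithmetic were added after the data were seen.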

Additional observations from a re-analysis of the deposited data

How the results depend on the processing

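In the fits, the log2 differences of all 7 genes stayed above 0 between states and below 0 between genotypes in all cells under every alternative run, Sqle between states not being tested without heat-shock cells. In CPM without TMM, Srebf2 of thinned cells was 0.94 higher in cKO. Only Fdft1 lost its state call. The thinned sums within states held 1 to 20 UMIs of Sqle and 8 to 37 of Fdft1 per library, which limits their precision.

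For genotype in all cells the genes called were 350 with no filter, 24 with DESeq2, 17 with library totals, 3 without other-class cells, 11 without heat-shock cells, 9 thinned to 2000 UMIs and 26 to 613 with a library left out, against 0. Of the 7 genes, 3 were called lower with no filter. A genotype fit with a library left out has a single library in its group, so its count of genes called does not describe the genotype. Replicate numbers were shared by name only: same-numbered deviations correlated at 0.178 over 13607 genes in 2 pairs. With the replicate block 170 genes were called and 1 of the 7, Idi1 (-0.77, edgeR adjusted p = 0.0016); in positive cells the block gave 32 and in negative cells 10 genes. Between states 2095 genes were called with DESeq2, 6448 at full UMIs and 2932 to 3438 with a library left out, against 3764. In positive cells the genes called for genotype were 39 with no filter, 17 with library totals, 6 with DESeq2, 6 without cycling cells and 0 to 76 with a library left out, against 10. In negative cells they were 58 with no filter, 4 with DESeq2, 7 without other-class cells, 7 with doublets removed, 4 without heat-shock cells, 5 at 1000 UMIs, 1 at full UMIs and 36 to 80 with a library left out, against 11. For the interaction they were 0 with DESeq2, 21 with doublets removed, 5 without cycling cells, 6 at 1000 UMIs, 5 at 2 or more state genes, 6 at full UMIs and 4 to 26 with a library left out, against 12. The interferon split gave 331 to 423 with a library left out, against 532, and the heat-shock split 882 to 1218, against 1264. Its calls were 33.3% higher ones with TMM and 65.6% with library totals. The causes were not tested.

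In positive cells the log2 differences of some of the 7 genes changed sign, none of them called. Hmgcs1 was 0.12 at 1000 UMIs and 0.15 at 2 or more state genes. Fdft1 was 0.033 at 4000 UMIs and 0.0082 at 2 or more state genes. Insig1 was 0.13 without heat-shock cells and 0.13 at 2 or more state genes. Srebf2 was -0.16 without heat-shock cells, -0.11 at 4000 UMIs, -0.22 at full UMIs and -0.069 to 0.39 with a library left out.

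In negative cells the log2 differences of some of the 7 genes changed sign, none of them called. Hmgcs1 was 0.023 with library totals, 0.021 without other-class cells, 0.18 without heat-shock cells, 0.14 at 1000 UMIs, 0.019 at 4000 UMIs, 0.075 at full UMIs and -0.20 to 0.12 with a library left out. Idi1 was 0.027 at 4000 UMIs. Msmo1 was -0.13 at 1000 UMIs, -0.073 at 4000 UMIs, -0.12 at full UMIs and -0.0068 to 0.059 with a library left out. Insig1 was -0.94 without heat-shock cells, -0.20 at 4000 UMIs, -0.20 at full UMIs and -0.10 to 0.20 with a library left out. Srebf2 was -0.17 without heat-shock cells, -0.24 at 1000 UMIs, -0.078 at 4000 UMIs, -0.027 at full UMIs and -0.057 to 0.21 with a library left out.

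In the interaction the log2 differences of some of the 7 genes changed sign, none of them called. Hmgcs1 was 0.17 at 2 or more state genes and -0.20 to 0.049 with a library left out. Sqle was 1.20 at 1000 UMIs and -2.13 to 0.18 with a library left out. Fdft1 was 0.048 without other-class cells, 0.029 without cycling cells, 0.25 at 4000 UMIs, 0.13 at 2 or more state genes and -0.44 to 0.13 with a library left out. Insig1 was 1.02 without heat-shock cells, 0.023 at 4000 UMIs, 0.068 at 2 or more state genes, 0.0080 at full UMIs and -0.58 to 0.053 with a library left out. Srebf2 was 0.0064 with DESeq2 size factors, 0.035 with library totals, 0.065 with DESeq2, 0.0023 without other-class cells, 0.026 without heat-shock cells, 0.42 at 1000 UMIs, 0.39 at 2 or more state genes and -0.15 to 0.27 with a library left out.

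In the interferon split the log2 differences of some of the 7 genes changed sign, none of them called. Hmgcs1 was -0.41 to 0.13 with a library left out. Msmo1 was -0.080 to 0.40 with a library left out. Insig1 was -0.20 to 0.46 with a library left out. Srebf2 was -0.13 to 0.33 with a library left out.

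In the heat-shock split the log2 difference of 1 gene changed sign. Fdft1 was -0.34 to 0.023 with a library left out.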

Other observations

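Cells of 1000 to 1999 UMIs were too shallow for the comparisons at equal depth. In these 186 to 352 cells per library the 7 genes summed to 93.8 and 97.2 CPM in the cKO libraries and to 105.8 and 114.1 CPM in the Control libraries, from 26 to 50 UMIs. The deeper cells of the same libraries had 120.6 and 109.1 CPM in cKO and 136.5 and 138.5 CPM in Control, so the sum was lower in the shallow cells of each of the 4 libraries. Single genes did not all follow the sum: Srebf2 was at 26.2 to 30.2 CPM in shallow and 18.2 to 22.2 CPM in deeper cells, higher in shallow cells of all 4 libraries, and Insig1 was higher in 3 of 4. These rest on 7 to 14 UMIs of Srebf2 and 3 to 17 of Insig1 per library. Cell state was not read in them.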
